A study of Mus musculus with 8 samples.

Results

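The 10 genes described here encode the surface ligands and costimulatory molecules through which macrophages and other antigen-presenting cells regulate T cells, together with the phagocytosis checkpoint receptor Sirpa. They were Cd274, Pdcd1lg2, Cd80, Cd86, Cd40, Icosl, Havcr2, Vsir, Lgals9 and Sirpa, chosen by their symbols, with earlier results of these data known. They made up 10 of 16786 genes with a value in the 7 complete libraries, and all 10 were among the 12412 genes tested. RNA was sequenced from CD45+F4/80+ tumor-associated macrophages (TAMs) sorted from s.c. B16 melanomas on day 14 after injection. One library was made per mouse, for 4 WT mice (TAM-WT) and 4 Colec11-/- mice (TAM-KO), all of the C57BL/6 strain. The B16 line is a pigmented melanoma that arose in the same strain. Colec11 encodes collectin-11 (CL-11), a soluble pattern recognition molecule that activates complement. The gene was lacking in every host cell of the TAM-KO animals. An effect on the macrophage itself and an effect of its surroundings therefore cannot be told apart. The paper found Colec11 mRNA in tumors of these mice too, and inferred that melanoma cells make a small amount of CL-11.

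T cells respond fully to antigen only when a second, costimulatory signal comes with it. CD80 and CD86 give that signal through CD28, and CTLA-4 on activated and regulatory T cells competes for the same ligands. PD-L1 and PD-L2 bind PD-1 and restrain T cells that are already active, and TAMs are a well-known source of PD-L1, which interferon gamma induces in many cell types. The other members include a costimulatory ligand (ICOSL), a receptor for T cell help (CD40), the inhibitory molecules TIM-3, galectin-9 and VISTA, and SIRPα, which binds CD47 on target cells and restrains phagocytosis.

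Levels are given as FPKM, that is, fragments scaled to transcript length and to the mapped fragments of each library, so that genes of different length can be compared. Differences between groups are log2 fold changes of TAM-KO over TAM-WT from edgeR's quasi-likelihood test on the expected counts, adjusted by Benjamini-Hochberg over all genes tested, and a gene was called at an adjusted p of at most 0.05. The 7 complete libraries held from 16225362 to 17280267 reads on genes. The table of TAM-KO replicate 1 lacks a run of genes that includes Cd80, Cd86, Havcr2 and Lgals9, which were therefore tested on 7 libraries (4 TAM-WT and 3 TAM-KO). The deposited table of genes that differ between the groups lists Cd80 for TAM-KO replicate 1, and that value is shown but did not enter the test. It does not list the other 3, which have n = 3 in TAM-KO. Genes named from other lists and missing in that library were treated in the same way. Colec11 itself had from 0 to 4 counts in TAM-WT and 1 count in each TAM-KO library, so its RNA could not check the genotype labels. The replicates are separate mice, and pairs of libraries of the same group differed by more than sampling noise.

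The 11 macrophage markers examined were detected and summed to 8164 to 10924 CPM (counts scaled to a common library total) in TAM-WT and 8744 to 10034 CPM in TAM-KO, where these sums cover replicates 2 to 4. Melanoma markers summed to 3699 to 7764 CPM in TAM-WT and 6812 to 8528 CPM in TAM-KO, and TAM-WT replicate 2 had both the highest melanoma sum and the lowest macrophage sum of its group. The 11 T cell markers summed to 2.47 to 25.1 CPM in TAM-WT and 31.9 to 83.2 CPM in TAM-KO, without overlap. The 11 dendritic cell markers summed to 31.6 to 76.1 CPM in TAM-WT and 44.5 to 60.6 CPM in TAM-KO. None of these markers was at 0 in all libraries. By edgeR, those called higher were 3 of 6 monocyte markers (Ly6c2 and Plac8 among them), 1 of 11 dendritic cell markers (Xcr1), 1 of 3 NK cell markers, 1 of 5 neutrophil markers (S100a8) and 1 of 6 melanoma markers (Sox10), and 0 of these lists' genes were called lower. Of the 6 melanoma markers, 5 were higher at an unadjusted edgeR p of at most 0.05, and DESeq2 called 4 higher and limma voom 6. DESeq2 called 2 dendritic cell and 3 neutrophil markers higher, and limma voom called 2 and 1 higher. Each of these tools also called 1 dendritic cell marker and 1 neutrophil marker lower. The lowest log2 fold changes of those lists by edgeR were those of Cd209a (-1.01, adjusted p = 0.0650) and Mmp8 (-1.22, adjusted p = 0.0603). S100a8 had 73.46 FPKM in TAM-KO replicate 1 and 9.13 to 15.83 FPKM in the other TAM-KO libraries. Of the 11 macrophage markers, 0 were called by edgeR, 3 had an unadjusted p of at most 0.05, and 3 were called by DESeq2 and 4 by limma voom. Of 9 B cell, fibroblast and endothelial markers tested, 0 were called by edgeR, 2 had an unadjusted p of at most 0.05, and 1 was called by each of DESeq2 and limma voom. The part of other cells in the results was not tested, and in bulk RNA fewer cells that make a transcript and less of it per cell cannot be told apart.

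By edgeR, Cd80 was the 1 member called lower in TAM-KO, and the ligands of PD-1 did not pass the test in either direction. Cd80 was called in 3 of the 7 fits that removed a library of its test. DESeq2 also called Sirpa lower, and limma voom also called Cd86, Icosl and Sirpa lower. Of the 10 members, 1 was called lower beside 5.24% of all genes tested, and 0 were called higher beside 4.58% of all genes. The count of members higher was also 0 at an unadjusted p of at most 0.05, by DESeq2 (8.71% of all genes higher) and by limma voom with sample quality weights (14.7%). The members' median log2 fold change was 0.08, and that of all genes tested was 0.00.

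**Figure D1:**
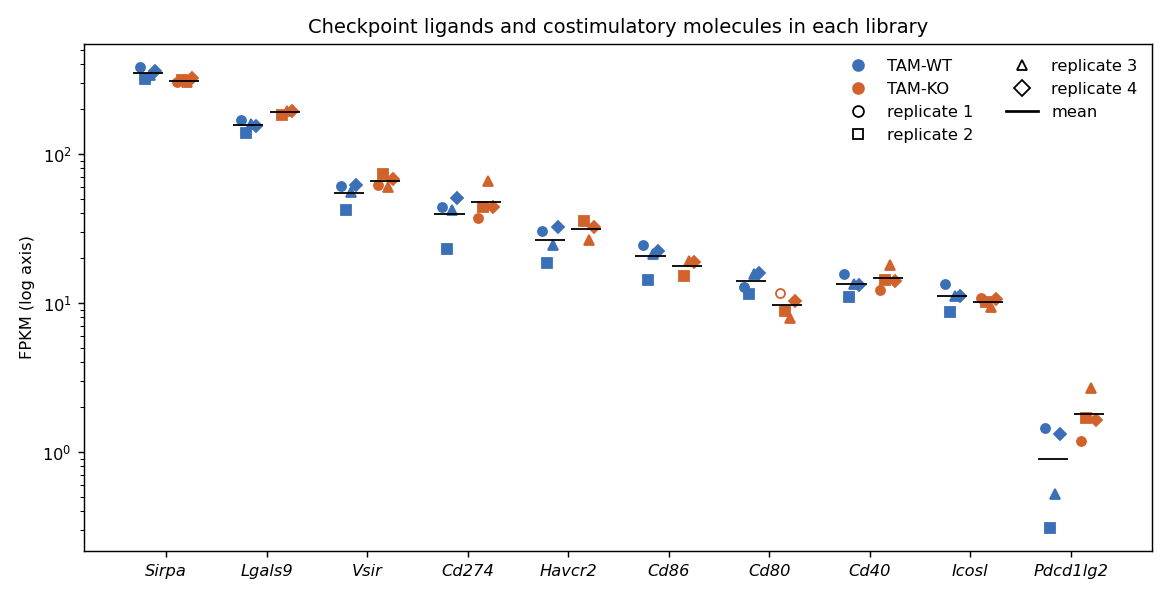
FPKM of each member (log axis) in the 4 TAM-WT (blue) and 4 TAM-KO (orange) libraries, with symbols for the replicate number and bars at the group mean. The open circle is the Cd80 value of TAM-KO replicate 1 taken from the table of the whole series. The levels run from Sirpa, at least 303.82 FPKM, to Pdcd1lg2, at most 2.67 FPKM, and TAM-WT replicate 2 (blue square) is the lowest of its group for all 10 members.

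The promoter sequences of 4 genes are shown because the members include interferon-inducible genes and because 10 of 21 interferon gamma response genes were called higher in TAM-KO. They are Cd80 (the member called lower by edgeR), Cd274 (the best-known interferon-inducible member), Lgals9 and, for comparison, Igtp (an interferon-inducible GTPase). Lgals9 was chosen because its FPKM did not overlap between the groups, with n = 3 in TAM-KO. It was not called (edgeR adjusted p = 0.232), and the groups did not overlap for 19.4% of all genes tested. Sequences are those of RefSeq (GRCm38.p6), 250 bases before to 50 bases after an annotated transcript start, read 5′ to 3′ on the gene's strand. The Cd80 window is chr16:38458683-38458982 (plus strand), whose start lies 1503 bases inside the annotated gene. The Cd274 window is chr19:29367188-29367487 (plus strand), whose start lies 5331 bases inside the gene. The Lgals9 window is chr11:78984875-78985174 (minus strand), and that of Igtp is chr11:58199306-58199605 (plus strand). Capitals mark matches to the gamma-activated site (GAS, TTCNNNGAA) or the core of the interferon-stimulated response element (ISRE, GAAANNGAAA), searched on both strands.
Cd80: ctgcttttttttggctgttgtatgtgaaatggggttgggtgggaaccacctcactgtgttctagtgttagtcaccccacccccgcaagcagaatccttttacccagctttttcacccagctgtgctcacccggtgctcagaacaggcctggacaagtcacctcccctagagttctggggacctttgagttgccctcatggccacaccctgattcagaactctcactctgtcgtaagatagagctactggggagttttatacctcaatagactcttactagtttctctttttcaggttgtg
Cd274: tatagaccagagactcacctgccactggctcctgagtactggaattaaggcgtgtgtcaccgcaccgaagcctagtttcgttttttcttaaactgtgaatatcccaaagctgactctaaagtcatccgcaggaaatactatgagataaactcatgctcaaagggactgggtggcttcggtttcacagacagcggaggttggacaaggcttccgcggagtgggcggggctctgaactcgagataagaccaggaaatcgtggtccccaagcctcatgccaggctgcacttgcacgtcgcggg
Lgals9: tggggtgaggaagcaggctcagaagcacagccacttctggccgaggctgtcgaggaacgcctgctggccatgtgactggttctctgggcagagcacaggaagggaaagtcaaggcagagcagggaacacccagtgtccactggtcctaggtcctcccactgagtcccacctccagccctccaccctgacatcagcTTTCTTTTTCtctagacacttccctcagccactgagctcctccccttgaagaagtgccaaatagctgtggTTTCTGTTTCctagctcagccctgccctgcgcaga
Igtp: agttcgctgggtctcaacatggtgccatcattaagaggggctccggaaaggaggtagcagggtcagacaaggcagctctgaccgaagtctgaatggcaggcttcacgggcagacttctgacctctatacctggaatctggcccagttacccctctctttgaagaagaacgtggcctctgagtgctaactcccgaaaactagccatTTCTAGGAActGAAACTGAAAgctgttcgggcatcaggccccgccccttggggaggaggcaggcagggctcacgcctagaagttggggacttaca

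Of the 10 members, 7 had a window, and Cd86, Cd40 and Sirpa had none. The GAS letters stood in 0 of these 7 windows, in 5 of 21 windows of the interferon gamma list (23.8%) and in 8.3% of 32851 windows of all genes. The ISRE core stood in 1 of the 7, in 7 of the 21 (33.3%) and in 3.44% of all windows. The member with matches was Lgals9, with 2 matches on the opposite strand, whose first printed bases stand 55 bases before and 15 bases after the start. Igtp held a GAS match 45 bases and an ISRE match 34 bases before its start, separated by a pair of bases. A match describes letters in this window and does not show a bound factor, and its absence says nothing of sites elsewhere.

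The genes of the PD-1 ligands lie side by side on chromosome 19, Cd274 at chr19:29362107-29388095 and Pdcd1lg2 at chr19:29410919-29472927, with 22824 bases between them. Cd274, which encodes PD-L1, had FPKM of 43.82, 22.85, 41.87 and 50.73 in TAM-WT, in the order of replicates 1 to 4. In TAM-KO it had 36.91, 44.31, 65.73 and 43.75 FPKM, in the same order. The groups overlapped, with TAM-WT replicate 2 well below the other 7 libraries and TAM-KO replicate 3 above them. Its mean was 39.8 ± 11.9 FPKM in TAM-WT (SD, n = 4) and 47.7 ± 12.5 FPKM in TAM-KO (SD, n = 4). The difference was 0.14 on the log2 scale (standard error, SE, 0.25), with a 95% interval from -0.42 to 0.70 and an edgeR adjusted p of 0.741, so a difference of 1.63-fold higher or 0.747-fold lay inside the interval. Its sign rested on single libraries, as the log2 fold change was -0.063 when TAM-WT replicate 2 was left out and -0.048 when TAM-KO replicate 3 was.

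Pdcd1lg2, which encodes PD-L2, was by far the scarcest member. It had FPKM of 1.45, 0.31, 0.52 and 1.33 in TAM-WT and 1.19, 1.70, 2.67 and 1.63 in TAM-KO, in the order of the replicates. These values rested on 78, 17, 28 and 73 counts in TAM-WT and 65, 88, 142 and 88 counts in TAM-KO. TAM-WT replicates 2 and 3 were the low libraries, TAM-KO replicates 2 to 4 were above all TAM-WT values, and TAM-KO replicate 1 lay among the TAM-WT values. The log2 fold change was 0.88 (SE 0.43, 95% interval from -0.08 to 1.84, edgeR adjusted p = 0.198). This was the largest estimate among the members and also the widest interval, from 0.943-fold to 3.59-fold, and it was not called.

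The CD28 and CTLA-4 ligands lie on chromosome 16, Cd86 at chr16:36568956-36666158 and Cd80 at chr16:38457430-38495958. Cd80 had FPKM of 12.75, 11.55, 15.68 and 15.90 in TAM-WT replicates 1 to 4. In TAM-KO it had 8.84, 7.87 and 10.34 in replicates 2 to 4, and 11.70 in replicate 1 by the series table. The 3 TAM-KO libraries tested were below all 4 TAM-WT libraries, while the value of TAM-KO replicate 1 exceeded that of TAM-WT replicate 2. Its mean was 14.0 ± 2.16 FPKM in TAM-WT (SD, n = 4) and 9.69 ± 1.68 FPKM in TAM-KO (SD, n = 4).

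The log2 fold change of Cd80 was -0.75 (SE 0.16, 95% interval from -1.13 to -0.38, edgeR adjusted p = 0.0329), which is a level in TAM-KO of 0.593 times that in TAM-WT (0.456 to 0.771). With TAM-KO replicate 1 filled in from the series table, a table selected for genes that differ, it was -0.64 with an edgeR adjusted p of 0.0475. Cd80 also passed by DESeq2, limma voom and limma on FPKM. It did not pass without TAM-WT replicate 3 or 4 (edgeR adjusted p = 0.0902 and 0.0741), nor without replicate 2 or 3 of TAM-KO (0.126 and 0.118), with estimates between -0.88 and -0.66 over the 7 tested libraries left out in turn. Relative to Csf1r, the macrophage growth factor receptor, chosen as a denominator after the values were seen, the FPKM ratio of Cd80 was 0.0450 to 0.0642 in TAM-WT and 0.0369 to 0.0398 in TAM-KO replicates 2 to 4. These ratios did not overlap. They leave out TAM-KO replicate 1, which had no Csf1r value and, by the series table, the highest Cd80 of its group (11.70 FPKM). Csf1r itself had a log2 fold change of -0.19 (edgeR adjusted p = 0.395). The macrophage markers with an unadjusted edgeR p of at most 0.05 were Cd68 (-0.55), Mertk (-0.35) and Fcgr1 (0.49). Ratios to these markers were not formed, and the estimate of Cd68 was nearer to that of Cd80 than the estimate of Csf1r was. The lack of overlap was therefore seen for Csf1r as the denominator only.

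Cd86, the other B7 ligand of CD28, had FPKM of 24.38, 14.29, 21.39 and 22.32 in TAM-WT and, in the 3 measured TAM-KO libraries, of 15.06, 19.00 and 18.78. These 3 values lay above TAM-WT replicate 2 and below the other TAM-WT libraries. The estimate was -0.33 on the log2 scale (SE 0.19, 95% interval from -0.78 to 0.11, edgeR adjusted p = 0.283). Without TAM-WT replicate 2 it was -0.49 with an edgeR adjusted p of 0.0198.

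**Figure D2:**
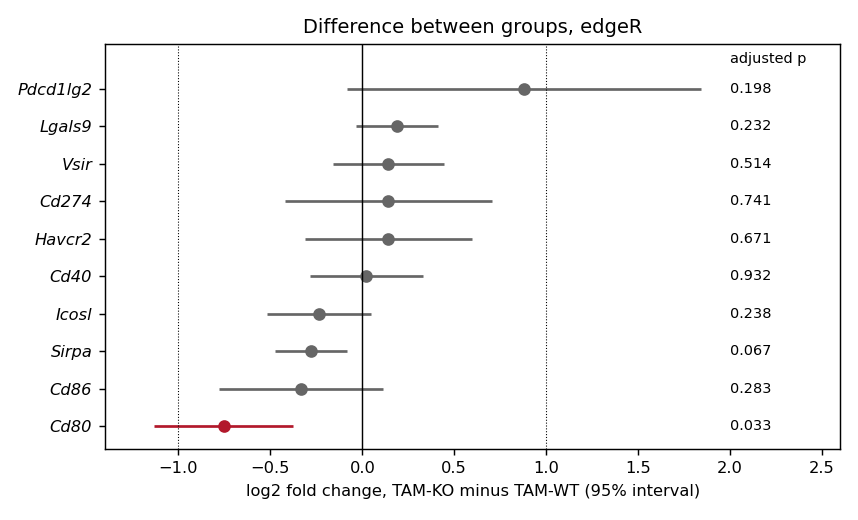
Log2 fold change of each member, TAM-KO minus TAM-WT, with its 95% interval from edgeR and its adjusted p. Dotted lines mark a 2-fold difference in either direction. Cd80 (red, -0.75) is the one member called, and Pdcd1lg2 (0.88) has the widest interval.

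Icosl (chr10:78069368-78079525) encodes the ligand of the T cell costimulator ICOS. Its FPKM was 13.50, 8.76, 11.20 and 11.20 in TAM-WT and 10.73, 10.09, 9.41 and 10.65 in TAM-KO. All 4 TAM-KO values lay inside the TAM-WT range. The difference on the log2 scale was -0.24 (SE 0.13, 95% interval from -0.52 to 0.05, edgeR adjusted p = 0.238), and without TAM-WT replicate 2 it was -0.35 with an edgeR adjusted p of 0.0200.

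Cd40 (chr2:165055614-165071654) encodes the receptor through which helper T cells license antigen-presenting cells. Its FPKM was 15.56, 11.05, 13.49 and 13.27 in TAM-WT and 12.17, 14.30, 18.05 and 14.07 in TAM-KO. The groups overlapped, and the log2 fold change was 0.02 (SE 0.14, 95% interval from -0.29 to 0.33, edgeR adjusted p = 0.932). Its sign turned when TAM-WT replicate 2 (-0.076) or TAM-KO replicate 3 (-0.086) was left out.

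Havcr2 and Lgals9 encode TIM-3, an inhibitory receptor found on T cells and myeloid cells, and galectin-9, one of its reported ligands. Havcr2 (chr11:46454931-46481255) had FPKM of 30.44, 18.43, 24.68 and 32.12 in TAM-WT and, in the 3 measured TAM-KO libraries, of 35.55, 26.56 and 32.12. The groups overlapped, and the log2 fold change was 0.14 (SE 0.20, 95% interval from -0.31 to 0.59, edgeR adjusted p = 0.671). It was -0.014 without TAM-WT replicate 2.

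Lgals9 (chr11:78962979-78984924) had FPKM of 169.10, 137.84, 159.97 and 154.55 in TAM-WT and 183.06, 192.74 and 194.27 in TAM-KO replicates 2 to 4. All 3 TAM-KO values were above all TAM-WT values. The log2 fold change was 0.19 (SE 0.10, 95% interval from -0.04 to 0.41), which did not pass the test (edgeR adjusted p = 0.232). Scaling to total reads, as FPKM is scaled, gave 0.30 (edgeR adjusted p = 0.0517), and limma on log2(FPKM + 1) gave 0.29 (limma adjusted p = 0.0525). Both settings moved the median of all genes tested to 0.09. In the sample tables, 2 of the 10 members, Cd80 and Lgals9, had FPKM that did not overlap between the groups, beside 19.4% of all genes tested.

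Vsir (chr10:60346851-60430294) encodes VISTA, an inhibitory B7-like protein abundant on myeloid cells. Its FPKM was 60.81, 42.22, 55.12 and 62.21 in TAM-WT and 61.96, 73.46, 59.56 and 68.07 in TAM-KO. The groups overlapped, and the log2 fold change was 0.14 (SE 0.14, 95% interval from -0.16 to 0.44, edgeR adjusted p = 0.514).

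Sirpa (chr2:129591042-129632228) was the most abundant member, with a TAM-WT mean above that of 98.4% of genes. Its FPKM was 382.79, 316.84, 339.28 and 360.99 in TAM-WT and 303.82, 311.20, 305.64 and 321.17 in TAM-KO. The groups overlapped through TAM-WT replicate 2 and TAM-KO replicate 4, and the mean was 350.0 ± 28.3 FPKM in TAM-WT and 310.5 ± 7.80 FPKM in TAM-KO (SD, n = 4 each). The log2 fold change was small and had a narrow interval (-0.28, SE 0.09, 95% interval from -0.47 to -0.08), with an edgeR adjusted p of 0.0673. DESeq2 called it (adjusted p = 0.0153), so that 2 of 10 members were lower by that tool beside 9.44% of all genes. Relative to Csf1r, Sirpa was at 1.35 to 1.52 in TAM-WT and 1.24 to 1.43 in TAM-KO replicates 2 to 4, and these ranges overlapped.

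The order of the mean levels in TAM-WT was Sirpa, Lgals9, Vsir, Cd274, Havcr2, Cd86, Cd80, Cd40, Icosl and Pdcd1lg2. Sirpa and Lgals9 were each clear of the next gene, and Pdcd1lg2 lay below all others, without overlap in either group. In TAM-WT, each of the neighbouring genes from Vsir to Icosl overlapped with the next in FPKM over the 4 libraries. In TAM-KO, Vsir still overlapped with Cd274, whereas Havcr2 was clear of both Cd274 and Cd86. Cd80 exceeded Cd40 in 3 of 4 TAM-WT libraries and was below Cd40 in 4 of 4 TAM-KO libraries, the series table value included. The mean of Cd80 in TAM-KO stood below that of Icosl too.

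Ratios within a library compare members free of differences in depth, and are given without a test. The FPKM ratio of the PD-1 ligands to the CD28 ligands, (Cd274 + Pdcd1lg2) to (Cd80 + Cd86), was 0.896 to 1.36 in TAM-WT and 1.56 to 2.55 in TAM-KO replicates 2 to 4. These ranges did not overlap, although of the 4 genes Cd80 alone was called. The ratio could not be formed for TAM-KO replicate 1, which had the lowest Cd274 and, by the series table, the highest Cd80 of its group, and whose ratio of Cd274 to Cd80 of 3.15 lay inside the TAM-WT range. The ratio of Cd80 to Cd86 was 0.523 to 0.808 in TAM-WT and 0.414 to 0.587 in TAM-KO replicates 2 to 4, with TAM-WT replicate 1 inside the TAM-KO range. The ratio of Pdcd1lg2 to Cd274 was 0.0124 to 0.0331 in TAM-WT and 0.0322 to 0.0406 in TAM-KO, so that PD-L2 transcripts were scarce beside PD-L1 transcripts in all 8 libraries. Chosen after the values were seen, the ratio of Cd80 to Cd40 was 0.819 to 1.198 in TAM-WT and 0.436 to 0.961 in TAM-KO, and that of Cd274 to Cd80 was 1.98 to 3.44 in TAM-WT and 3.15 to 8.35 in TAM-KO.

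**Figure D3:**
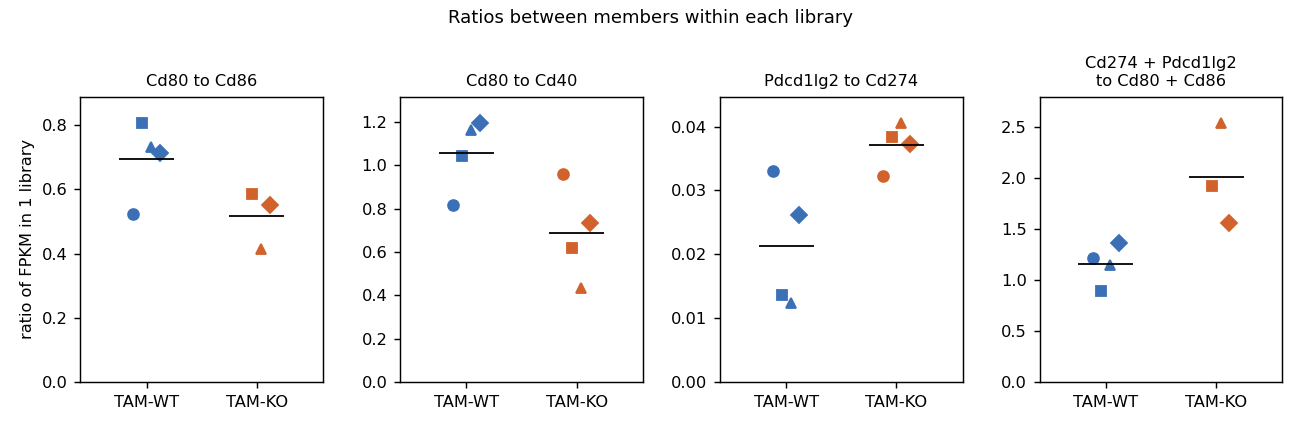
Ratios of FPKM between members in each library, with bars at the group mean and the symbols for replicates 1 (circle), 2 (square), 3 (triangle) and 4 (diamond). The ratio of Cd274 plus Pdcd1lg2 to Cd80 plus Cd86 is at most 1.36 in TAM-WT and at least 1.56 in TAM-KO, where it has n = 3, as does Cd80 to Cd86.

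TAM-WT replicate 2 was the lowest of the 4 TAM-WT libraries for 10 of 10 members, whereas it was the lowest for 23.9% of the 12412 genes and the highest for 40.8%. TAM-WT replicate 1 was the highest for 6 members and TAM-WT replicate 4 for the other 4. The coefficient of variation in TAM-WT ran from 8.10% for Sirpa to 63.3% for Pdcd1lg2. Without TAM-WT replicate 2, members called lower were 4 of 10 (Cd80, Cd86, Icosl and Sirpa) beside 10.5% of all genes tested. Leaving out the lowest library raises the TAM-WT mean FPKM of every member, so a shift toward lower in TAM-KO was fixed in advance. By limma voom with sample quality weights the same 4 were called lower, beside 14.5% of all genes. That fit can give less weight to a library that departs from its group, and the weights were not examined. These results are therefore not taken as separate.

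**Figure D4:**
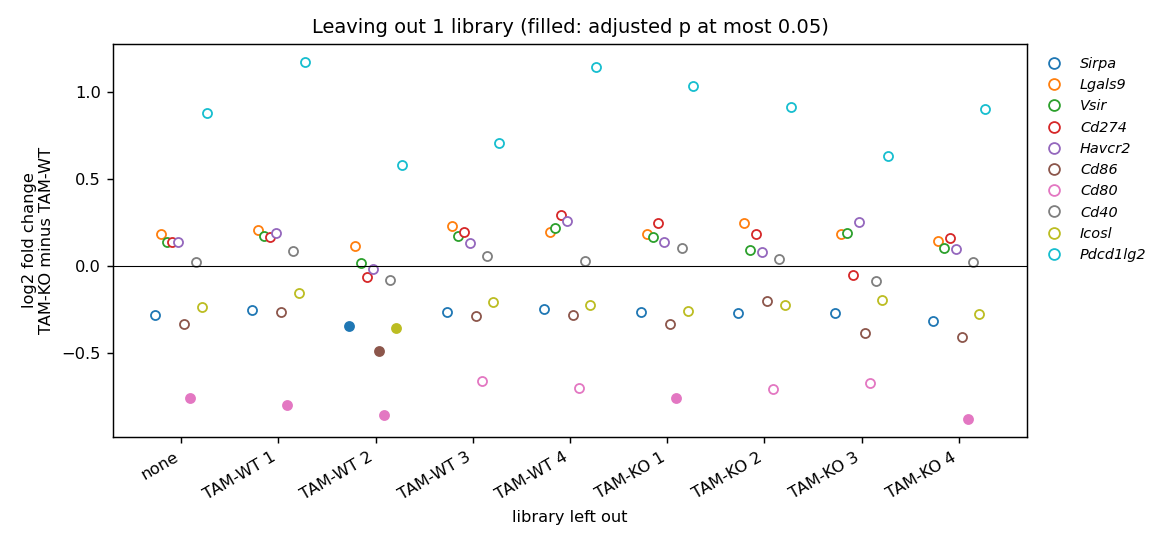
Log2 fold change of each member with all libraries (none) and with each library left out in turn, filled where the adjusted p from edgeR was at most 0.05. Cd80 stays between -0.88 and -0.66 and is called in 3 of the 7 fits that removed a library of its test. TAM-KO replicate 1 was not in the test of Cd80, Cd86, Havcr2 or Lgals9. Cd86, Icosl and Sirpa are called in 1 fit, the one without TAM-WT replicate 2.

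Among partners of the members, the inhibitory T cell receptors had more RNA in TAM-KO. Of 9 partner genes tested, 3 were called higher and 0 lower by edgeR, beside 4.58% of all genes higher, with a median log2 fold change of 0.45. Pdcd1, which encodes PD-1, had FPKM of 1.66, 0.10, 0.11 and 0.38 in TAM-WT and 3.42, 5.04, 4.47 and 2.31 in TAM-KO, without overlap. These values rested on 47, 3, 3 and 11 counts in TAM-WT and 99, 138, 126 and 66 counts in TAM-KO. The log2 fold change of Pdcd1 was 2.66 (SE 0.62, edgeR adjusted p = 0.0330). Ctla4 had 0.63, 0.07, 0.18 and 0.24 FPKM in TAM-WT and 2.93, 1.80, 2.44 and 1.0 in TAM-KO. Ctla4 was tested on 7 libraries, without the series table value of TAM-KO replicate 1 (2.93). Those libraries held 18, 2, 5 and 7 counts in TAM-WT and 49, 69 and 28 counts in TAM-KO. The log2 fold change of Ctla4 was 2.51 (SE 0.55, edgeR adjusted p = 0.0334). Such low TAM-WT counts leave the size of the fold changes of Pdcd1 and Ctla4 imprecise.

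Both receptors are characteristic of T cells, and the T cell markers given above moved with them. Of 10 T cell markers tested, 2 were called higher and 10 were higher at an unadjusted p of at most 0.05, with a median log2 fold change of 2.67. The abundant markers Cd8a and Cd3g led their sum, and Cd3g had a log2 fold change of 3.0 (edgeR adjusted p = 0.0731). Cd3g had 59, 2, 3 and 2 counts in TAM-WT and 179, 175 and 62 counts in TAM-KO replicates 2 to 4. Rgmb, a partner of PD-L2, had a log2 fold change of 0.38 (edgeR adjusted p = 0.0478). Selplg, the most abundant partner and a reported binding partner of VISTA, had a log2 fold change of 0.18 (edgeR adjusted p = 0.450). DESeq2 and limma voom each called 1 partner gene lower. Named after their values were seen, Cd28, the activating receptor of CD80 and CD86, had a log2 fold change of -0.87 (edgeR adjusted p = 0.0560) and Icos one of 1.39 (edgeR adjusted p = 0.135). The partner genes called fell from 3 to 0 when any 1 of TAM-WT replicates 3 and 4 or TAM-KO replicates 2 and 3 was left out, and to 1 when TAM-KO replicate 1 was.

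Some genes of interferon gamma signaling and response were called higher in TAM-KO. Cd274, itself inducible by interferon gamma, was not called by edgeR, DESeq2 or limma voom. By edgeR 10 of the 21 genes on that list were called higher and 0 lower, beside 4.58% of all genes higher, and 11 were not called. At an unadjusted edgeR p of at most 0.05, 15 were higher. DESeq2 called 14 higher, beside 8.71% of all genes, and limma voom 15, beside 14.7%, each with 0 lower. The edgeR log2 fold changes of the 21 genes ran from -0.16 to 2.38 with a median of 1.11. The 95% interval of Cd274 was from -0.42 to 0.70. Igtp had FPKM of 22.22, 5.92, 8.68 and 13.93 in TAM-WT and 34.05, 60.28, 65.71 and 36.39 in TAM-KO, without overlap. It was tested on 7 libraries, without the series table value of TAM-KO replicate 1 (34.05), and its log2 fold change was 1.99 (SE 0.39, edgeR adjusted p = 0.0269). Nlrc5, the transactivator of MHC class I genes, rose by 1.37 on the log2 scale (edgeR adjusted p = 0.0265), and Psmb9, an immunoproteasome subunit, rose by 1.11 (edgeR adjusted p = 0.0285). The GTPase gene Irgm1 rose by 1.54 (edgeR adjusted p = 0.0305) and the chemokine gene Cxcl10, the most abundant of the list, by 0.92 (edgeR adjusted p = 0.0324). Psmb9, Irgm1 and Cxcl10 were also tested on 7 libraries. The genes called fell to 0 when TAM-WT replicate 3 or either of TAM-KO replicates 2 and 3 was left out, and to 3 when TAM-WT replicate 4 was. TAM-WT replicate 2, the lowest TAM-WT library for Cd274, was also the lowest for Igtp, Nlrc5, Irgm1 and Psmb9, but not for Cxcl10, whose lowest was TAM-WT replicate 3 (92.44 FPKM, with 96.13 FPKM in replicate 2).

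**Figure D5:**
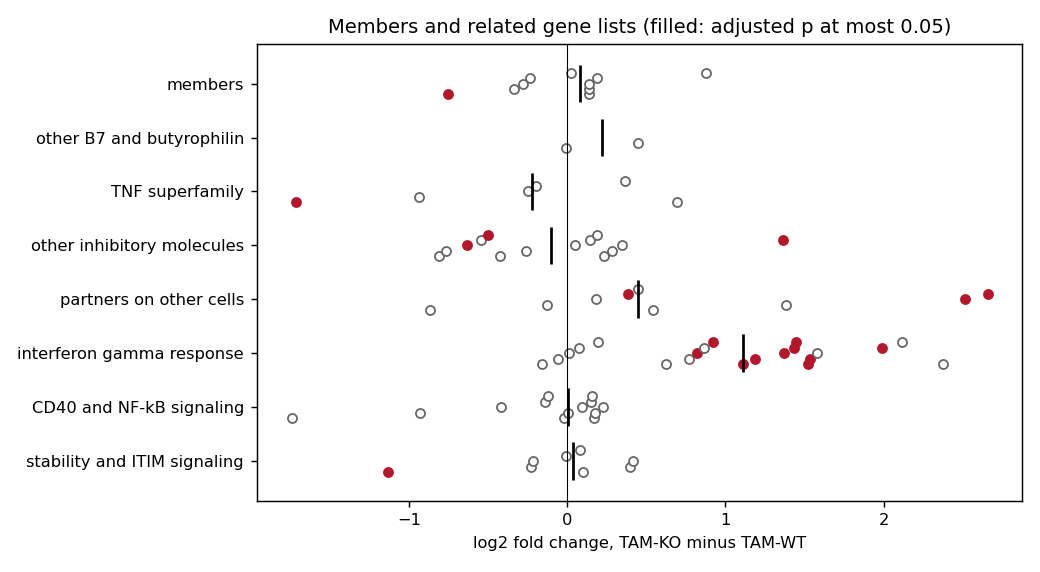
Log2 fold change, TAM-KO minus TAM-WT, of the tested genes in each list. Each point is 1 gene, filled where the edgeR adjusted p was at most 0.05, and the bar is the list's median. The median of the interferon gamma list is 1.11 and that of the members 0.08.

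Other ligands of T cell receptors and other inhibitory molecules of macrophages gave calls in both directions. Of 6 TNF superfamily genes tested, 0 were called higher and 1 lower by edgeR, and 0 higher and 2 lower by DESeq2. Tnfsf18, which encodes the ligand of GITR, fell from 0.59, 0.67, 0.68 and 0.58 FPKM in TAM-WT to 0.22, 0.27, 0.13 and 0.19 FPKM in TAM-KO (log2 fold change -1.71, SE 0.28, edgeR adjusted p = 0.0140), without overlap and at a low level. It was not called without TAM-KO replicate 3 (edgeR adjusted p = 0.0532). Tnfsf9, the ligand of 4-1BB and the most abundant of these genes, had a log2 fold change of -0.94 (SE 0.29, edgeR adjusted p = 0.0675). Of the other B7 and butyrophilin genes, 2 were tested and 0 were called by edgeR, DESeq2 or limma voom, and 0 passed an unadjusted p of at most 0.05. The most abundant of them, Cd276 (B7-H3), had a log2 fold change of -0.01 (edgeR adjusted p = 0.977).

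Of 14 other inhibitory ligands and myeloid inhibitory receptors, 1 was called higher and 2 lower by edgeR, beside 4.58% and 5.24% of all genes. DESeq2 called 1 higher and 6 lower, beside 8.71% and 9.44%, and limma voom 2 higher and 5 lower, beside 14.7% and 14.5%. Cd200r1, the receptor through which CD200 restrains myeloid cells, fell from 63.14, 55.43, 61.96 and 60.18 FPKM in TAM-WT to 44.30, 33.19, 44.73 and 45.00 FPKM in TAM-KO (log2 fold change -0.63, SE 0.11, edgeR adjusted p = 0.0187). Lgals1, which encodes galectin-1, had a log2 fold change of -0.50 (SE 0.11, edgeR adjusted p = 0.0305) and had 3 TAM-KO values. Lgals3, the most abundant of the list and tested on 7 libraries, had a log2 fold change of -0.81 (edgeR adjusted p = 0.0610). Siglece, an inhibitory sialic acid receptor, had FPKM of 8.42, 3.55, 3.52 and 7.16 in TAM-WT and 9.46, 22.43, 23.03 and 10.10 in TAM-KO, and its log2 fold change was 1.37 (SE 0.37, edgeR adjusted p = 0.0465). Cd200r1 was called in 6 of the 8 fits with a library left out (not without TAM-WT replicate 3, 0.0578, or TAM-KO replicate 3, 0.0588). Lgals1 was called in 3 of the 7 that removed a library of its test (not without TAM-WT replicates 3 or 4 or TAM-KO replicates 2 or 3) and Siglece in 3 of 8 (not without those 4 or TAM-KO replicate 1).

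Genes of the members' signaling and turnover were also examined. Of 13 genes of CD40 and NF-kB signaling, 0 were called in either direction by edgeR, 4 had an unadjusted p of at most 0.05, and 3 were called lower by both DESeq2 and limma voom. The most abundant, Tnfaip3, an NF-kB target that restrains the pathway, had a log2 fold change of -1.74 (SE 0.54, edgeR adjusted p = 0.0654). Of 8 genes of protein stability and ITIM signaling, 0 were called higher and 1 lower by edgeR, 1 higher and 2 lower by DESeq2, and 1 higher and 3 lower by limma voom. The gene called by edgeR was Cd83, whose product stabilises CD86 and MHC class II on the cell surface, with 39.33, 71.86, 82.91 and 68.54 FPKM in TAM-WT and 36.65, 30.33, 33.91 and 33.09 FPKM in TAM-KO. TAM-WT replicate 1 lay near the TAM-KO values and the groups did not overlap. It was tested on 7 libraries, without the series table value of TAM-KO replicate 1 (36.65), with a log2 fold change of -1.13 (SE 0.25, edgeR adjusted p = 0.0332). It was called in 2 of the 7 fits that removed a library of its test, and not without TAM-WT replicates 3 or 4 or TAM-KO replicates 2, 3 or 4. Cd81, the most abundant of the list, had a log2 fold change of 0.10 (edgeR adjusted p = 0.592).

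The genes whose levels followed Cd80 most closely, by Pearson's r of log2 CPM over the 7 libraries of its test, were Csgalnact2 (r = 0.995), Uhrf1bp1l (r = 0.994) and Hsdl1 (r = 0.991). They were chosen as the highest of all genes tested, and r reflects the difference between the groups as well as the spread within them. All 3 passed the test as lower, with log2 fold changes of -0.38, -0.41 and -0.45 (edgeR adjusted p = 0.0452, 0.0274 and 0.0237), each smaller than that of Cd80.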

How the data were processed

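RNA of CD45+F4/80+ TAMs from B16 melanomas was measured in 4 WT and 4 Colec11-/- mice, grouped by the genotype in the deposited labels. The authors sequenced on BGISEQ-500 and deposited expected counts and FPKM values from RSEM, which estimates the reads on each gene, and scales FPKM by gene length and mapped reads. The submitters' processing notes name HISAT2 2.0.4, Bowtie2 2.2.5, RSEM 1.2.12 and GRCm38.p6. Gene coordinates and promoter windows are those of RefSeq for that build, and 10 of 10 members matched by gene ID. The authors' fold changes, p-values and q-values were not used.

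The table of TAM-KO replicate 1 lacks 5311 of 21051 genes. Of the genes tested, 9396 had values in all 8 libraries and were fitted on 8. The other 3016 were fitted on 7, with 1 adjustment of p over all. The planned fit assumed all 8 for every gene. The series table fills 1188 of 4214 missing genes, and 629 values of that library, for genes with no value in the other 7 tables, were not used. Rounded expected counts were tested with edgeR 4.0.16 in R 4.3.3 (TMM, filterByExpr, glmQLFit, glmQLFTest) and Benjamini-Hochberg adjustment. The test was checked on simulated counts with the same spread between replicates for every gene and no deviations shared by the genes of a library. The check therefore does not cover libraries that depart from their group, as in the real data. Total reads on genes set the counting precision, and the fitted SE carries the spread between mice.

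The members and lists were chosen with earlier results of these data known. Named from each list were up to 4 called genes with the lowest p and the most abundant tested gene, and for each called member the 3 most alike genes. Alternatives were DESeq2 size factors, total-read scaling, DESeq2 1.42.0, limma 3.58.1 (voom with quality weights, and log2(FPKM + 1) or log2(FPKM + 0.1)), other filters on counts, a replicate block, a filled TAM-KO replicate 1, an adjusted p of at most 0.01, and each library left out. Applied after seeing the data were these alternatives for genes that are not members, and ratios to Csf1r. A gene of the interferon gamma list and a monocyte marker are counted in their totals and not reported singly here.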

Additional observations from a re-analysis of the deposited data

How the results depend on the processing

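Members called lower were 1 with edgeR, 2 with DESeq2, 4 with limma voom and sample quality weights, 0 at an adjusted p of at most 0.01, and from 0 to 4 with a library left out (4 without TAM-WT replicate 2 and 0 without TAM-WT replicate 3 or 4 or TAM-KO replicate 2 or 3). Members called higher were 0 in every fit. The interferon gamma genes called higher ranged from 0 to 14 with a library left out, and the partner genes from 0 to 4. The partner genes were 1 with at least 10 counts in every sample. Of 180 log2 fold changes of members under alternatives, 163 kept their direction and their side of the threshold, 7 newly passed it, 4 no longer passed it and 6 turned sign. For the members missing in TAM-KO replicate 1, leaving that library out removed nothing from their test. Those that turned were Cd274 (-0.063 and -0.048 without TAM-WT replicate 2 and TAM-KO replicate 3, up to 0.29 with another library left out), Cd40 (-0.011 with limma voom, -0.076 and -0.086 without the same libraries, up to 0.10) and Havcr2 (-0.014 without TAM-WT replicate 2, up to 0.26). The cause was not tested.

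Same-numbered libraries had correlations of -0.35, 0.03, -0.25 and 0.27 between their deviations from the group means. These had no common sign, and 4 libraries per group are too few to decide whether the numbers pair the mice. With the replicate block, Cd80 had a log2 fold change of -0.79 (edgeR adjusted p = 0.0408), 1 member was called lower and 0 higher, and 1080 genes were called in place of 1218. Under that block Siglece, Rgmb, Nlrc5 and Cxcl10 were no longer called (edgeR adjusted p = 0.105, 0.0679, 0.0505 and 0.0649), and the other genes named from the related lists and rerun under it (Tnfsf18, Lgals1, Cd200r1, Pdcd1, Ctla4, Igtp, Irgm1, Psmb9 and Cd83) kept theirs. Genes called over all genes were 2253 by DESeq2, 3625 by limma voom, 2755 without TAM-WT replicate 2, 151 and 416 without TAM-WT replicates 3 and 4, and 682, 77 and 77 without TAM-KO replicates 1 to 3. Scaling to total reads moved the median of all genes to 0.09. The low counts of Pdcd1lg2, down to 17, limit its precision.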
